A study of Mus musculus with 4 samples.

Results

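Predicted genes led by Gm10800 were examined in RNA of E18.5 fetal oocytes. The list held 10 gene symbols, chosen on their counts in these libraries. Of these, 9 were found among the 55401 gene identifiers of the count tables (Gm10800, Gm10801, Gm10715, Gm10717, Gm10718, Gm10720, Gm10721, Gm10722 and Gm11168), while Gm26870 was not matched and is not analysed here. The fetuses came from ICR mothers fed for 4 months with either normal diet, abbreviated ND, or high-fat diet, abbreviated HFD, and each diet had 2 libraries. The oocytes, named primordial germ cells in the sample labels, were sorted from fetal ovaries by SSEA-1, a surface antigen of germ cells, and several fetuses were pooled for each library. The labels give the molecule as poly(A) RNA, amplified by SMART-Seq2, which suits small inputs and primes on the poly(A) tail. Nothing in the labels says whether the replicates came from separate mothers, so the p-values measure only the spread between these libraries.

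Mouse pericentromeres are built from the major (gamma) satellite, an AT-rich DNA repeat arranged head to tail in long arrays and packed as constitutive heterochromatin. Histone H3 lysine 9 methylation by SUV39H enzymes, HP1 proteins and DNA methylation keep these arrays compact. Short pieces of the same repeat also lie in the assembled chromosome sequences, and automatic annotation has placed small protein-coding gene models on such pieces. No function is known for these models. Reads from any copy of the repeat can resemble all of them.

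The sequences of the 9 genes, taken from GENCODE M21 transcripts on GRCm38, showed what the models share. All 9 were annotated as protein-coding. Gm10801 and Gm10800 are neighbours on opposite strands of chromosome 2 (chr2:98662237-98667301), and the other 7 lie on the plus strand of chromosome 9 (chr9:3000922-3038316). A run of 33 bases, identical in all 9 genes, was the longest run found in an exon of each. It occurred in 18 of 141767 annotated transcripts, all of them from 12 genes. A stretch of up to 120 bases around it is printed for each gene, 5′ to 3′ on the coding strand. The run is in capitals, and the stretches show how alike the members are around it.

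Gm10800, chr2:98666901-98667020 (minus strand): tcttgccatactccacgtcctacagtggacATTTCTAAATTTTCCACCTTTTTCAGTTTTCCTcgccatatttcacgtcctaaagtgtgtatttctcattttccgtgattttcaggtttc
Gm10801, chr2:98662335-98662454 (plus strand): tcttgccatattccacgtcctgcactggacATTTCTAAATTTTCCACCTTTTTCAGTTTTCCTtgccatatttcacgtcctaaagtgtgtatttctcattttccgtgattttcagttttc
Gm10715, chr9:3037375-3037489 (plus strand): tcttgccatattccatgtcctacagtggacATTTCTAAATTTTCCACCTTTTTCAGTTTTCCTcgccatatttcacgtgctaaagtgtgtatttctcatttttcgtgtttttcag
Gm10717, chr9:3025680-3025799 (plus strand): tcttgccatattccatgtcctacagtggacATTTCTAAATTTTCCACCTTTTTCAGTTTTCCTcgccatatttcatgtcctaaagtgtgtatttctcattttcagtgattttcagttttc
Gm10718, chr9:3023811-3023930 (plus strand): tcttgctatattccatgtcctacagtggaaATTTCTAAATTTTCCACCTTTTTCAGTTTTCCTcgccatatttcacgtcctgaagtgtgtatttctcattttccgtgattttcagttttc
Gm10720, chr9:3016561-3016680 (plus strand): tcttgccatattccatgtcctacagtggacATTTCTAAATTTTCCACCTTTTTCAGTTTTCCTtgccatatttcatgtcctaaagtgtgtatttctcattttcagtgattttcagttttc
Gm10721, chr9:3013404-3013523 (plus strand): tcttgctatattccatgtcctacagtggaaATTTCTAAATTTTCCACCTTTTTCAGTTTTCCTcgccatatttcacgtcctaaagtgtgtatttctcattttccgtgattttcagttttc
Gm10722, chr9:3001156-3001275 (plus strand): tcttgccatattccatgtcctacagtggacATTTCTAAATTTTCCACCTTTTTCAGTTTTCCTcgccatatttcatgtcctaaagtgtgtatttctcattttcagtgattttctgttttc
Gm11168, chr9:3003610-3003697 (plus strand): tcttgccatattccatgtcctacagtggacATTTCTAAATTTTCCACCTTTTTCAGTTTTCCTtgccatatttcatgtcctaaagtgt

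The stretches differed from that of Gm10800 at 4 to 6 positions, all outside the capitals. Over the whole stretch, the 33 bases in capitals included, at least 95% of the compared bases were identical. The stretches were placed on the longest shared run, so the rest of the transcripts can be less alike. The sequences of Gm10800 and Gm10801 matched in the same sense although the genes point in opposite directions on the chromosome, and no 20-base word of 1 member lay on the opposite strand of another.

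The members also repeated within themselves. When each of the 15 distinct exons of at least 300 bases was compared with itself at shifts of 20 to 300 bases (fewer where an exon was short), a shift of 234 bases gave the best match in every exon. These exons belonged to 7 of the members. At that shift 82.7% to 97.9% of bases were identical, against a median over all shifts of 30.1% to 32.7%. A shift of 234 bases is the textbook length of the major satellite unit; no satellite consensus was compared here. The start of the longest exon of Gm10800 and of Gm10722 is printed beside the bases 234 positions further on, with the bases that differ between them in capitals, to show this repeat.

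Gm10800, first stretch, chr2:98666969-98667040 (minus strand): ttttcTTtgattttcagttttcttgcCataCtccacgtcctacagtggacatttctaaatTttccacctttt
Gm10800, next stretch, chr2:98666735-98666806 (minus strand): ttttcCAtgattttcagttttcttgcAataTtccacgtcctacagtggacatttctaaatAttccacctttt
Gm10722, first stretch, chr9:3000962-3001081 (plus strand): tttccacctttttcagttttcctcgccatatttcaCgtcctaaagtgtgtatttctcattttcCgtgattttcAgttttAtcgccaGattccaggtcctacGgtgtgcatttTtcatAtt
Gm10722, next stretch, chr9:3001196-3001315 (plus strand): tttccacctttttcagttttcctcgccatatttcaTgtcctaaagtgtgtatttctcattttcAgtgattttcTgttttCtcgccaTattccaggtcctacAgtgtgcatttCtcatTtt

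The 2 stretches of Gm10800 differed at 5 of 72 positions, and those of Gm10722 differed at 8 of 120. The sense strand was rich in thymine, at 45.8% to 47.5% of bases in the members against a median of 25.2% over the longest transcripts of 48558 genes. Only 21 of those genes (0.0432%), the members among them, reached the lowest value of a member. For A and T together the members held 64.0% to 65.7%, a level that 2.72% of genes reached.

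The repeat was searched for across the transcriptome by counting the 20-base words that a gene shares with the 9 members. By definition each member shares all of its own words. At least 50% were shared by 13 of 55450 annotated genes, the 9 members included, and the next gene shared 0.115%. Beside the listed genes, these were Gm17535 and Gm10719 on chromosome 9 and Gm21738 on chromosome 14 (chr14:19415857-19418930, minus strand). Gm26870, a noncoding RNA annotated across the whole chromosome 9 cluster on the minus strand, also belonged to the 13. Among the members themselves, Gm10800 shared most with its chromosome 2 neighbour Gm10801 (41.7% of its 20-base words) and a median of 30.4% over all 8 other members. The closest pair was Gm10721 and Gm10718, with 78.5% of the words of Gm10721 found in Gm10718.

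**Figure D1:**
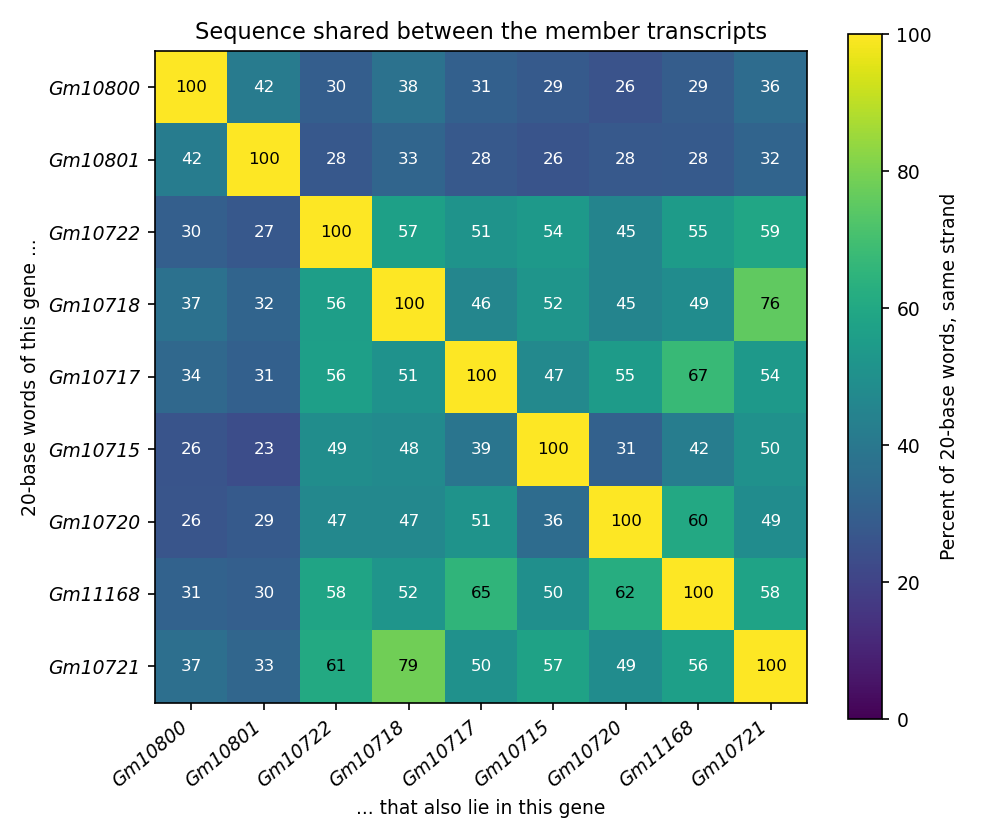
Percent of the 20-base words of each member (rows) that also lie on the same strand of each other member (columns), for the longest transcript of each gene, with genes ordered by level. Gm10800 and Gm10801 share 41.7% and 41.9% of their words with each other, and the chromosome 9 genes share more among themselves than with this pair, up to 78.5%.

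Together the 9 genes took a large part of the sequenced RNA. Their summed count was 243364 of 8223255 reads counted on genes in ND replicate 1 and 238992 of 7815015 in ND replicate 2. It was 163750 of 6456825 in HFD replicate 1 and 494144 of 5723605 in HFD replicate 2. These sums are 2.96% (95% exact binomial interval 2.95 to 2.97), 3.06% (3.05 to 3.07), 2.54% (2.52 to 2.55) and 8.63% (8.61 to 8.66) of the libraries, and the intervals cover counting error only. HFD replicate 2 stood apart at 3.03 times the mean of the other libraries, and HFD replicate 1 lay below both ND libraries, so the diets overlapped. The mean share was 3.01% ± 0.0698 (SD, n = 2) in ND and 5.58% ± 4.31 (SD, n = 2) in HFD. On the log2 scale the HFD mean was 0.89 above the ND mean, and without HFD replicate 2 it was -0.25, with the direction turned. No test was made on the share, since it chose the members.

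Gm10800 alone accounted for most of this. Its count was 176098 in ND replicate 1, 173976 in ND replicate 2, 118615 in HFD replicate 1 and 363812 in HFD replicate 2. It took more counts than any other gene in both ND libraries and in HFD replicate 2, and ranked 3 in HFD replicate 1. Scaled to a library total common to all (CPM), these values were 21415, 22262, 18370 and 63563, so the ND libraries differed by 1.04-fold and the HFD libraries by 3.46-fold. The neighbouring Gm10801 had counts of 48297 and 46523 under ND, and of 33302 and 83795 in HFD replicates 1 and 2. It ranked between 3 and 8 among all genes by count. The pair held 2.73%, 2.82%, 2.35% and 7.82% of the ND replicate 1, ND replicate 2, HFD replicate 1 and HFD replicate 2 libraries, and the 7 chromosome 9 genes together held 0.231%, 0.237%, 0.183% and 0.813%.

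**Figure D2:**
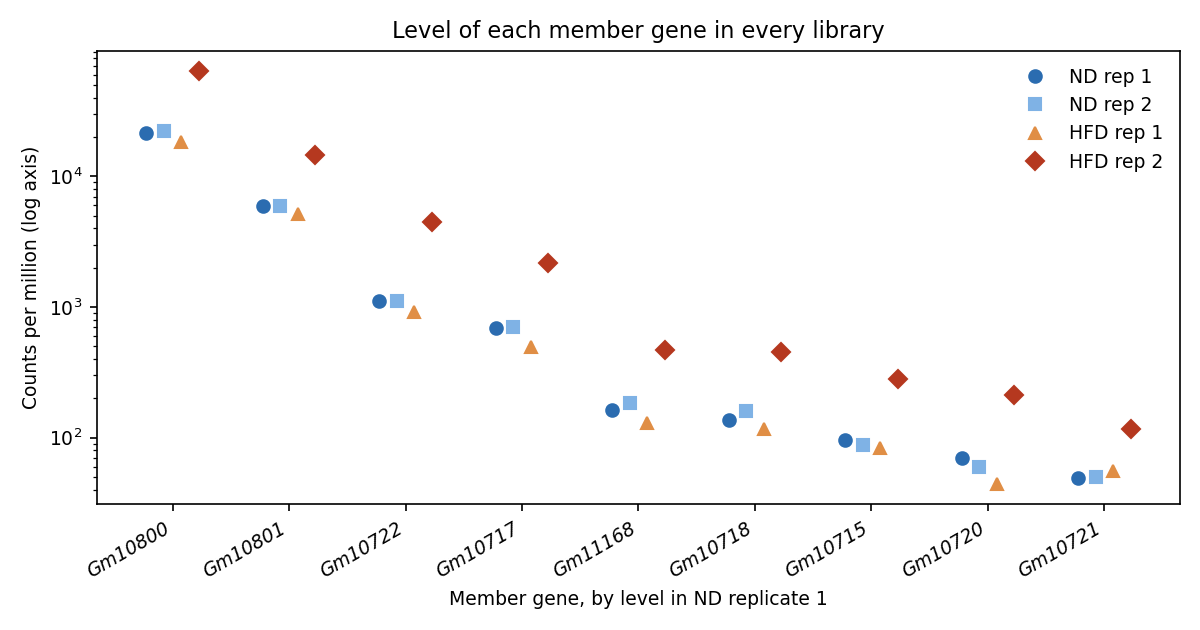
CPM of each member gene (log axis) in the 4 libraries; each symbol is 1 library. Every member is highest in HFD replicate 2, and Gm10800 spans 18370 to 63563 CPM.

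The chromosome 9 genes fell over a wide range. Gm10722, at the start of the cluster, was the most abundant of them, with 9113 and 8744 counts under ND, 5876 in HFD replicate 1 and 25415 in HFD replicate 2. Gm10717 had 5623, 5532, 3188 and 12366 counts in the same order. Neither gene separated the diets, since HFD replicate 1 was below both ND libraries and HFD replicate 2 above them. Gm11168 held 1334, 1425, 837 and 2685 counts and Gm10718 held 1129, 1255, 755 and 2607. Gm10715 had 790, 684, 535 and 1593 counts. In these 3 genes too, HFD replicate 1 was lowest and HFD replicate 2 highest. Gm10720 had 577 and 461 counts under ND, then 287 and 1202 under HFD, with the same order. Gm10721, the least abundant, had 403, 392, 355 and 669 counts, and at 54.98 CPM in HFD replicate 1 it was the only member whose HFD libraries both lay above both ND libraries (49.01 and 50.16 CPM), a pattern that 13.9% of all genes tested showed.

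Levels per kilobase of merged exons put the members in an order that the libraries largely shared. Gm10800 stood at 27834 to 96308 CPM per kilobase and exceeded Gm10801 by 2.72- to 3.32-fold in every library. Gm10801 exceeded Gm10722 by 4.26- to 7.32-fold, and Gm10722 exceeded Gm10718 by 7.29- to 10.2-fold. Gm10718 exceeded Gm10717, and Gm10717 exceeded Gm10715, in 4 of 4 libraries. Below them the order was not settled: Gm10715 was above Gm10720 in 2 of 4 libraries, Gm10720 above Gm11168 in 2 of 4 and Gm11168 above Gm10721 in 3 of 4. From the top to the bottom of the order the mean level differed by 469.8-fold.

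How much of a member's transcript also lies in other annotated transcripts differed too. Windows were cut from spliced transcripts, some of them across exon joins, and the genome outside annotated transcripts was not searched. Only the same strand of the transcripts of the 13 genes was searched. Matches on the opposite strand, as could occur with Gm26870, were not counted, so the shares can be too low. None of the 100-base windows of the Gm10800 and Gm10801 transcripts lay on the same strand in a transcript of another of these genes, and 19.7% of those of Gm10722 did. For Gm10715, Gm10717 and Gm10718 these shares were 23.2%, 32.6% and 38.7%, and for Gm10721, Gm11168 and Gm10720 they were 47.4%, 53.7% and 63.2%. The 3 genes with the smallest shares at this window were those with the highest levels per kilobase, but the order depends on the window. With 50 bases, 27.2% of the windows of Gm10800, 17.1% of those of Gm10801 and 63.0% of those of Gm10722 were shared, the last above Gm10717 (54.9%) and Gm10715 (60.4%). With 20 bases the shares were 55.3% for Gm10800, 53.3% for Gm10801 and 85.5% for Gm10722, against 75.2% for Gm10717, 82.1% for Gm10715 and 85.0% for Gm10718. How the counting assigned reads that align to several copies is not given in the sources used here, and its part in these levels was not tested. The split of reads between the members is uncertain for the same reason, and reads from copies that carry no gene model cannot be told apart from theirs.

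**Figure D3:**
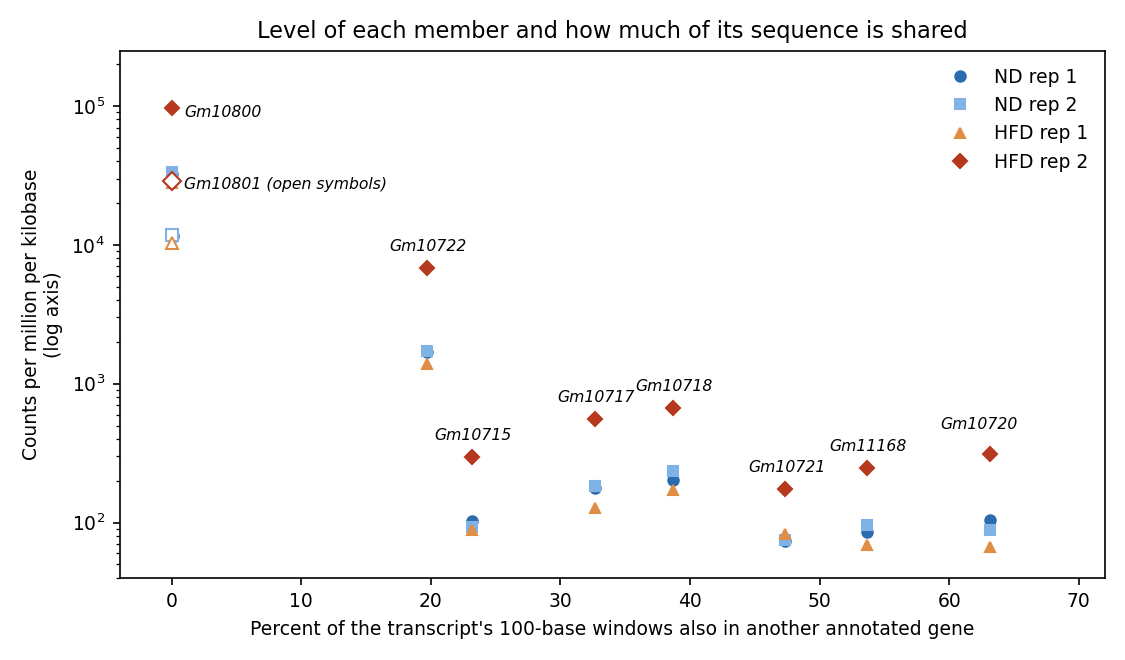
CPM per kilobase of merged exons (log axis) against the percent of 100-base windows of the longest transcript that also lie in another annotated gene. Only matches on the same strand of a transcript were counted. Each symbol is 1 library and open symbols are Gm10801. Gm10800 and Gm10801 sit at 0% with the highest levels, Gm10722 at 19.7%, and the other 6 genes between 23.2% and 63.2% with lower levels; with 50-base windows Gm10722 would be at 63.0%, above Gm10717 and Gm10715.

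The members kept nearly fixed proportions. Gm10801 held 27.4%, 26.7%, 28.1% and 23.0% of the Gm10800 count in ND replicate 1, ND replicate 2, HFD replicate 1 and HFD replicate 2. Gm10722 held 5.17%, 5.03%, 4.95% and 6.99% in the same order. Across the 8 members set against Gm10800, the highest library exceeded the lowest by 1.13- to 1.63-fold (median 1.24), while Gm10800 itself ranged over 3.46-fold. HFD replicate 2 also differed in make-up. Gm10722 was 5.14% of the members' counts there (exact 95% interval 5.08 to 5.21) against 3.59% to 3.74% in the other libraries, whereas Gm10801 was 17.0% (16.9 to 17.1) against 19.5% to 20.3%. Gm10721 moved furthest, from 0.299% of the Gm10800 count in HFD replicate 1 to 0.184% in HFD replicate 2.

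**Figure D4:**
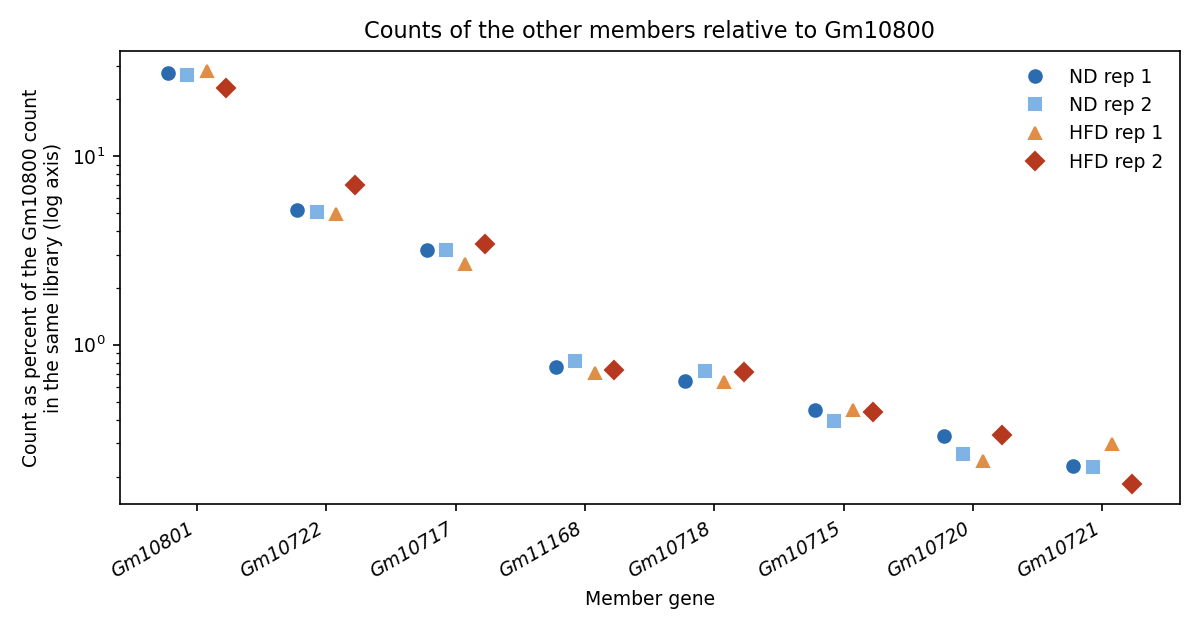
Count of each other member as a percent of the Gm10800 count in the same library (log axis); each symbol is 1 library. Gm10801 lies between 23.0% and 28.1% and Gm10722 between 4.95% and 6.99%.

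Agreement between the ND libraries was close for every member. The 9 members differed between ND replicate 1 and ND replicate 2 by 1.01- to 1.19-fold in CPM. Among the 2365 other genes with a mean CPM of at least that of the lowest member, 67.8, the median difference was 5.79-fold. Of them, 8.88% (210 genes) were within 1.2-fold, as all 9 members were. These other genes passed on their mean alone, so genes high in 1 library are among them, which can widen their differences. Hbb-bs, for example, had 894 and 0 CPM in ND and 0.31 and 0.17 in HFD. Each member had at least 287 counts in every library, so the comparison is not like with like. Between the HFD libraries the members differed by 2.12- to 4.88-fold (median 3.62) and these other genes by a median of 23.9-fold. HFD replicate 2 was the highest library for all 9 members and for 474 of the 2365 other genes. The proportions and the agreement are descriptions of genes chosen on these libraries, with no test.

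The 3 genes that share the repeat but were not on the list were read in the same way. Gm21738 had 21762 and 20345 counts under ND, 15842 in HFD replicate 1 and 58174 in HFD replicate 2, which placed HFD replicate 2 at 3.87 times the ND mean in CPM. Gm10719 had 1676, 1073, 978 and 2350 counts and Gm17535 had 314, 314, 187 and 550. In all 3 genes HFD replicate 2 was highest, at 2.41 to 3.87 times the ND mean, and among the members it was at 2.36 to 3.99 times. HFD replicate 1 stood at 0.739 to 0.935 of the ND mean in these 3 and at 0.688 to 1.11 in the members.

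**Figure D5:**
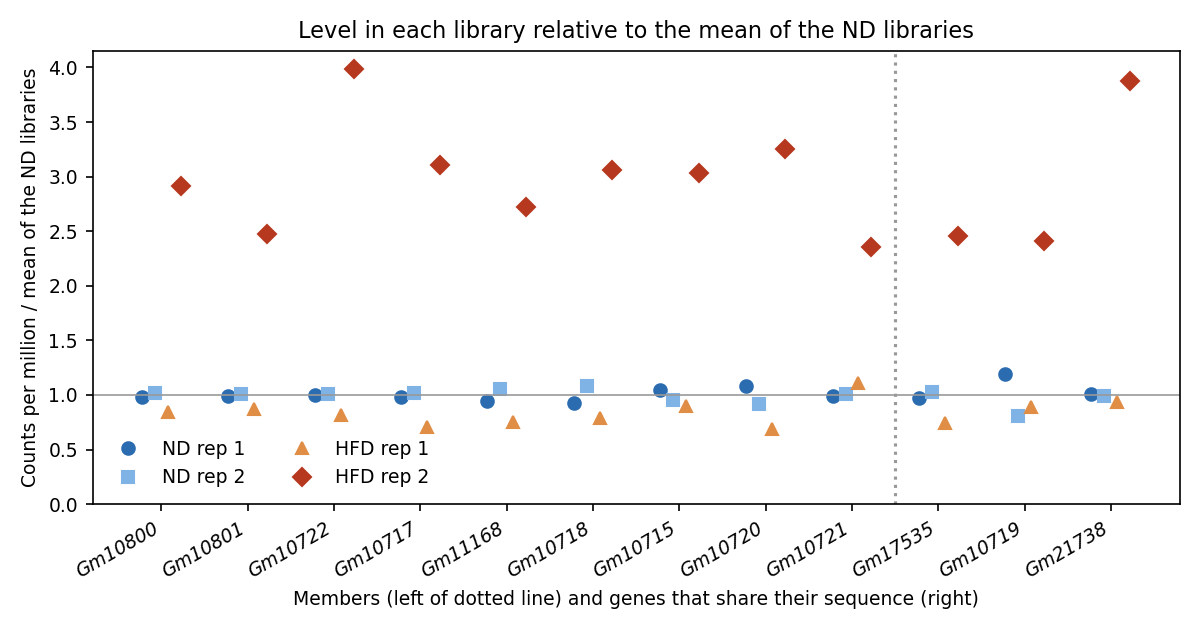
CPM in each library divided by the mean of the ND libraries, for the 9 members (left of the dotted line) and the 3 other genes with the repeat (right); each symbol is 1 library. HFD replicate 2 lies between 2.36 and 3.99 in all 12 genes, and the other libraries between 0.688 and 1.19.

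The genes around the repeats were near the limit of detection. Within 100 kb of Gm10800 and Gm10801 the nearest annotated gene was the pseudogene Gm13806, 60883 bases away, with 4, 0, 1 and 2 counts in ND replicate 1, ND replicate 2, HFD replicate 1 and HFD replicate 2. Beyond the chromosome 9 cluster the microRNA gene Mir101c had 0 to 2 counts per library, the transcript 4930433N12Rik had 5 to 14 and the pseudogene Gm32390 had 2 to 6. A floor of 3 counts corresponds to 0.365 to 0.524 CPM, so high counts in these regions were found on the genes that carry the repeat.

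Genes were then ranked by how close their pattern over the 4 libraries lay to that of Gm10800, as the Euclidean distance between centred log2 CPM (0.5 count added) among 9677 genes with at least 10 counts in every library. The 5 nearest genes outside the list were Dact3, a Wnt pathway regulator, Sez6, a membrane protein of neurons, Tead3, a transcription factor of the Hippo pathway, Col15a1, a basement membrane collagen, and Disp2, a Dispatched family protein. Their distances were 0.0583 to 0.0833 log2 units and their counts 16 to 89 per library. Dact3, for example, had 25, 25, 16 and 51 counts. The members lay at 0.16 to 0.50 from Gm10800, and 463 of 9668 other genes (4.79%) lay no further from it than the farthest member, at a median of 4.89 CPM. Of these 463 genes, 2 had a mean over 100 CPM, against 7 of the 9 members: Gm21738, and Wapl, which encodes a factor that releases cohesin from chromosomes. Wapl had 3920, 3973, 3452 and 8062 counts, and was named after its values were seen. With 4 libraries the pattern of any gene holds few values, and the likeness is a description.

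The comparison of the diets addressed whether RNA from the repeat differed in oocytes from HFD mothers. No member passed edgeR's quasi-likelihood test at an adjusted p under 0.05 and a fold change over 1.5 (0 of 9), beside 0.0% of all 19335 genes tested. At an unadjusted p under 0.05, 0 of 9 members passed, beside 11.2% of all genes (2171), and DESeq2 called 0 of 9 members beside 5.24% of its 49005 genes. In edgeR the log2 fold change of HFD over ND after TMM normalization was 0.63 with an SE of 2.07 for Gm10800 (adjusted p = 0.95) and 0.51 with an SE of 2.01 for Gm10801 (adjusted p = 0.96). The largest value was 0.91 with an SE of 1.92 for Gm10722 (adjusted p = 0.907). All 9 fitted values were above 0, from 0.50 to 0.91, with a median of 0.63 beside 0.034 over all genes tested, and every SE was larger than its log2 fold change. Without HFD replicate 2 the median over the members was 0.21, with 0.25 for Gm10800, 0.21 for Gm10722 and 0.0042 for Gm10717. The 3 other genes with the repeat had values of 0.40 to 0.94, with adjusted p from 0.908 to 0.940. These members were chosen on the same counts, so the fitted values are no independent evidence of a direction.

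Scaling changed how far the HFD libraries lay apart. The TMM factors were 1.02 and 0.940 for ND and 0.692 and 1.51 for HFD, and on the TMM scale Gm10800 was at 20991, 23671, 26551 and 42198 CPM. Both HFD libraries then lay above both ND libraries for 5 of 9 members, where 16.1% of all genes tested did, while by library total this held for 1 of 9 members, where 13.9% of all genes did. The difference between the HFD libraries was 3.46-fold for Gm10800 by library total and 1.59-fold after TMM. With the library total as the only scaling, the median log2 fold change was 0.94 over the members and 0.21 over all genes tested.

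The libraries differed widely in markers of germ cells and of other cell types. Summed, the stromal, pregranulosa and macrophage markers were highest in HFD replicate 2, as the members were. The germ cell, endothelial and hemoglobin sums were highest in other libraries. The 8 germ cell markers summed to 2188 and 3855 CPM in ND and 3484 and 2429 CPM in HFD replicates 1 and 2. All 8 had counts in every library, though Dazl, which encodes a germ cell RNA-binding protein, had 14247 and 29465 counts in ND and 2926 and 49 in HFD (edgeR adjusted p = 0.682). Ddx4, a germ cell RNA helicase, had 49 and 97 counts in ND and 5 and 14 in HFD. Others went the opposite way: Sycp1, of the synaptonemal complex, had 36 and 48 counts in ND and 9038 and 7978 in HFD, and Taf7l, a germ cell TFIID subunit, had 17, 53, 5994 and 5517. Of the 8 markers, 5 had a fitted value above 0 and 3 below, edgeR called 0, and DESeq2 called Sycp1 and Taf7l higher. The 7 stromal markers summed to 2674 and 57.3 CPM in ND and to 1598 and 7035 in HFD. That sum was highest in HFD replicate 2, as the members were. Col1a1 (11776, 98, 6061 and 15691 counts) and Col3a1 (268, 93, 23 and 16987) were highest there too. So were Postn (24, 22, 17 and 7281) and Pdgfra (58, 29, 5 and 151). Lum (4916, 9, 6 and 7 counts) and Dcn (2656, 36, 8 and 17) were instead highest in ND replicate 1. Col1a2 (2295, 161, 4197 and 134) was highest in HFD replicate 1. The 6 pregranulosa markers summed to 18.7, 398, 9.45 and 1142 CPM, the 3 endothelial markers to 11.9, 63.7, 693 and 21.3, the 4 macrophage markers to 18.8, 9.21, 11.8 and 37.6, and the 4 hemoglobin genes to 1971, 0.512, 0.619 and 0.349, with 2 of the 4 at 0 in each library but ND replicate 1. A single gene carried some of these sums: Amhr2 had 6372 counts in HFD replicate 2 against 5 to 19 elsewhere, Fst 2990 in ND replicate 2 against 7 to 35, and Kdr 4398 in HFD replicate 1 against 28 to 67. A sum over the 1407 olfactory receptor genes and pseudogenes, which these cells are not known to use, was 1409, 1030, 1302 and 2030 CPM, a list chosen after the data were seen. Whether any of these has a part in the members' level in HFD replicate 2 was not tested. In pooled RNA, a change in the number of cells of a type and a change in RNA per cell cannot be told apart.

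Genes that act at pericentromeric heterochromatin were set beside the repeat. Of the 30 genes on this list, 29 were tested and 0 passed in either direction, beside 0 of 19335 genes over all. At an unadjusted p under 0.05, 1 was higher and 3 were lower in HFD, together 4 of 29 beside 11.2% of all genes. DESeq2 called 5 higher and 2 lower, namely Suv39h1, Suv39h2, Trim28, Hells, Dnmt1, Smchd1 and Incenp. Over all of its genes it called 5.24% (1382 higher, 1187 lower), a base that includes genes the edgeR filter left out. The median log2 fold change in edgeR was -0.25 beside 0.034 over all genes. Dnmt3a, a de novo DNA methyltransferase, had 9334 and 109 counts in ND and 45 and 22103 in HFD. Dnmt1, the maintenance DNA methyltransferase, had 107 and 210 counts in ND and 1691 and 17242 in HFD (log2 fold change 5.86, SE 2.27, adjusted p = 0.406). Within each diet, these enzymes had a wider gap between the libraries than any member had in that diet. Hells, a chromatin remodeler needed for DNA methylation of repeats, had 371, 184, 27 and 9111 counts, and Atrx, a remodeler found at pericentromeres, had 2528, 106, 3019 and 245. Suv39h1, which writes H3 lysine 9 trimethylation, had 5737, 61, 35 and 67 counts, and Cbx3, an HP1 protein, had 2141, 67, 781 and 679. By CPM, HFD replicate 1 was lowest and HFD replicate 2 highest in 9 of the 30 genes, Dnmt3a and Hells among them, as in Gm10800; 26.4% of all genes tested had this order. Among these 9, and named after their values were seen, Smchd1, a repressor of the inactive X chromosome, had 71, 76, 40 and 1801 counts, and Cbx5, an HP1 protein, had 63, 71, 25 and 319, with close ND libraries in both.

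Predicted genes that overlap ribosomal RNA repeats were the other abundant repeat class looked for, and 2 of 7 listed names were matched. Gm23935 had 134, 176, 828 and 199 counts and Gm15564 had 71, 59, 42 and 97, so Gm10800 exceeded their summed CPM by 136- to 1229-fold. The other listed names were not matched, so this fold holds for these 2 genes only and not for the class. Gm23935 was highest in HFD replicate 1, the library in which most members were lowest.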

How the data were processed

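RNA of sorted E18.5 oocytes was measured in 4 libraries. The authors used Trim Galore for trimming, HISAT2 for alignment to mm10 and featureCounts for counting, and deposited raw counts per Ensembl gene; the annotation release, strand setting and handling of reads with several alignments are not given in the sources used here. Names and lengths came from GENCODE M21 (GRCm38), which lacked 260 of 55401 identifiers. Totals were 5723605 to 8223255 counts per library. Diets were compared with edgeR 4.0.16 (quasi-likelihood, legacy FALSE, TMM, filterByExpr, Benjamini-Hochberg), tested on simulated data, with DESeq2 1.42.0 and limma-voom 3.58.1 as alternatives. The simulation used set dispersions and not the spread of these libraries, so it does not show how the tests perform on them. SE was the size of the log2 fold change divided by the root of F. Sequences were read from M21 transcripts. Members and lists were chosen with earlier results of these data known; named genes are the members, genes within 100 kb, the 5 nearest in pattern, the rRNA list and the 6 heterochromatin genes of highest mean CPM. With 2 libraries against 2, a permutation test cannot go below p = 0.333, and none was made.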

Additional observations from a re-analysis of the deposited data

How the results depend on the processing

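The count of members called was 0 of 9 under all 13 alternatives (other normalizations, filters and tools, a replicate block, no minimum fold change, and leaving out each library). Over all genes the count was 0 in edgeR and limma-voom, 2569 with DESeq2 on all genes and 34 with the legacy fit of edgeR, and 0 with each library left out. With limma-voom 750 genes had an unadjusted p under 0.05. A replicate block in edgeR, which pairs libraries by the number in their label, called 0 genes and 0 members, with a median log2 fold change of 0.58 over the members; the labels share only a number. The size of the members' log2 fold changes depended on HFD replicate 2: their median was 0.63 with all libraries and 0.21 without it. The refits reuse the same libraries and the members share sequence, so they give no independent support for a direction. Fitted values were above 0 in 107 of 108 cases, although Gm10717 was at 0.0042 without HFD replicate 2. The exception was Gm10720, at -0.034 without HFD replicate 2; with each library left out its log2 fold change was -0.034 to 0.98. The log2 ratio of the summed share, 0.89 as reported, was -0.25 to 1.52 with each library left out, where -0.25 is the value without HFD replicate 2 and the lone HFD library is below both ND libraries. It was 0.61 on TMM-scaled sizes, 1.01 over totals without the 50 most abundant genes, 0.96 over protein-coding totals and 0.85 without Gm10800. The cause of these shifts was not tested. Each member had at least 287 counts in every library.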
